A study of Mus musculus with 12 samples.

Results

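Sciatic nerve crush was compared with an intact nerve in vehicle-treated mice, using 3 libraries of crushed mice and 3 libraries of intact mice, or 6 of the 12 libraries in the series. The libraries were chosen by their labels alone, and no measured value entered the choice. All mice were C57BL/6, 6 to 8 weeks old, and received PBS, the vehicle of the study's test compound indole-3-propionic acid (IPA), by gavage every day for 10 days. The intact group was sampled after that course. The crushed group was given the same course, its sciatic nerve was then crushed, and the ganglia were taken 3 days later. The labels do not say whether PBS gavage went on over those 3 days. Each library held RNA pooled from the L4 to L6 dorsal root ganglia (DRG) of 2 mice, so the 6 libraries stand for 6 pools and not for single animals. The labels give neither sex nor batch, and they give both groups the same strain, age range and vehicle. The 3 days after the course are given for the crushed group only, so an effect of that time cannot be told apart from crush.

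The DRG holds the cell bodies of the sensory neurons whose axons run in the sciatic nerve, wrapped by satellite glia and mixed with Schwann cells, fibroblasts, blood vessels and resident macrophages. After a peripheral nerve crush these neurons switch to a growth state: injury transcription factors and peptides rise, many channels, receptors and synaptic proteins of the resting neuron fall, and macrophages become more numerous or more active in the ganglion. The study set this crush response beside IPA treatment, and the values below describe the vehicle arm by itself.

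Depth was high and even, at 40938034 to 58013747 recovered reads per library, so that 1 read was worth 0.0140 to 0.0199 CPM, the unit of the values, which scales reads to the size of the library. Sensory neuron markers were present in every library, with a summed level of 6815 to 7577 CPM in intact and 7745 to 8727 CPM in crushed ganglia, and none of the 7 was at 0. The higher sum came from Tubb3, a neuronal tubulin (0.59), and Uchl1, a neuronal deubiquitinase (0.33), while Snap25 (-0.70), Pou4f1 (-0.37), Rbfox3 (-0.34) and Isl1 (-0.33) fell and Avil did not pass the test. Macrophage markers stood at 20.7 to 26.0 CPM intact and 69.4 to 75.6 CPM crushed, and all 5 of them rose. Satellite glia markers stood at 476 to 531 CPM intact and 694 to 722 CPM crushed, of which only the glutamine synthetase gene Glul passed the test, and fibroblast markers at 425 to 481 CPM intact and 562 to 586 CPM crushed. Among the fibroblast markers Dcn (0.30) and Lum (0.51) rose, and Pdgfra and Col1a1 did not pass the test. The summed neutrophil markers overlapped between groups (7.85 to 25.8 CPM against 22.3 to 41.8 CPM), as did the summed myelinating Schwann cell markers (3537 to 4113 CPM against 3193 to 3810 CPM). Of the 5 neutrophil markers only Ly6g passed the test, at 0.154, 0.152 and 0.132 CPM intact and 1.55, 2.09 and 1.65 CPM crushed (1.80). Skeletal muscle markers reached 68.1 to 243 CPM in crushed against 57.2 to 95.1 CPM in intact libraries. Of 4 spinal cord markers 1 was at 0 in all 6 libraries. Their sum was 7.91 to 9.63 CPM intact and 4.76 to 6.05 CPM crushed, and Aqp4, the only one tested, fell (-0.81). Pericyte and smooth muscle markers stood at 166 to 175 CPM intact and 130 to 158 CPM crushed. Of these, Rgs5 (-0.40) and Pdgfrb (-0.29) fell, and Acta2 and Myh11 did not pass the test. The part that changes in cell make-up play in the results below was not tested, and in bulk tissue fewer cells of a type and less RNA per cell cannot be told apart. Crushed library 1 stood apart from the other crushed libraries on the second principal component, which held 9.79% of the variance against 80.9% for the first, and the first separated the groups.

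Of 44345 genes listed, 15298 had at least 0.5 CPM in at least 3 of the 6 libraries and were tested. In this text a gene rose or fell where the adjusted p (Benjamini-Hochberg, over all tested genes) was under 0.05. By that rule 3138 genes rose (20.5% of the tested genes) and 3181 fell (20.8%), 41.3% in all, and the median log2 change over all tested genes was -0.01. The shares of 20.5% and 20.8% are the background for the counts of every list and family below. Without crushed library 1, the library that stood apart, 7581 genes passed (3623 higher and 3958 lower) in place of 6319. A fit with each library's trend on GC content and transcript length removed, called the trend-removed fit below, covered 15000 genes, of which 21.8% rose and 29.3% fell, and its counts are given beside those of a gene list where either count moved by more than 1.5 times. Differences are on the log2 scale of CPM plus 0.5, written as crushed minus intact with the standard error of the fit, so a change of 1.00 is 2-fold, and changes of genes near 0.5 CPM are understated. Levels are CPM, not divided by gene length, and are compared only between libraries and never between genes. Levels with ± are means with the SD over 3 libraries.

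Large changes leaned to rises and small ones to falls. On the scale of CPM plus 0.5, 525 genes rose more than 2-fold (3.43% of those tested) and 104 fell (0.68%), and more than 4-fold 103 rose and none fell. This offset shrinks the change of low genes: on the recovered reads edgeR gave 188 falls over 2-fold and DESeq2 196, and both gave 2 falls and 213 rises over 4-fold. In the mid-size range, from 1.5 to 2-fold, 648 genes rose and 662 fell, and below 1.5-fold 1965 rose and 2415 fell. Changes of 1.5-fold or more in either direction numbered 1939, or 12.7% of the tested genes. Of the 525 genes that rose more than 2-fold, 36 belonged to a list of 55 tested classical regeneration-associated genes, 489 did not, and 305 were in none of the lists and families used here. Of the 104 that fell more than 2-fold, 55 were in none of them. For 10795 genes the 95% interval of the change lay within 1.5-fold of no change.

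**Figure D1:**
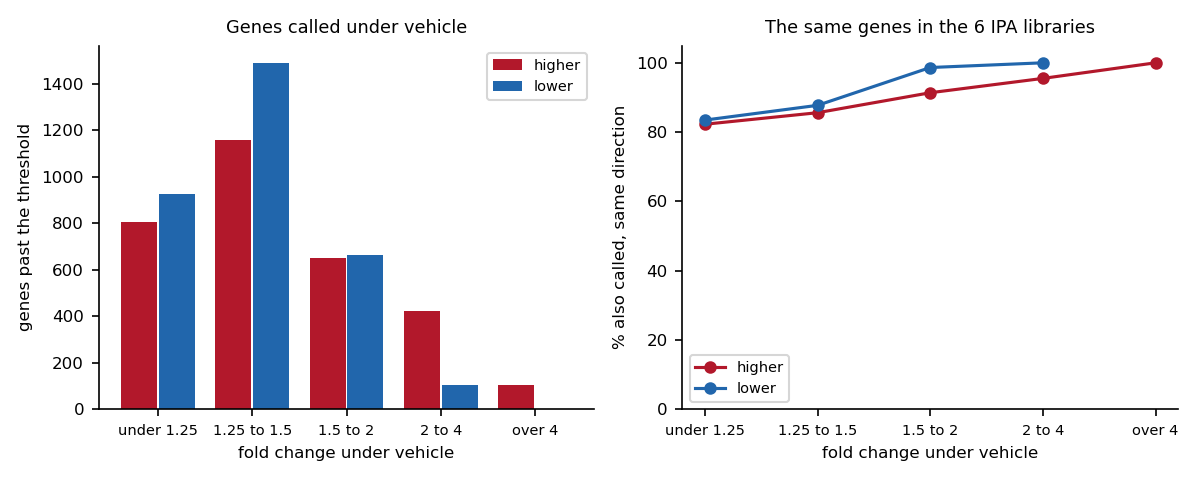
Genes that rose or fell after crush in vehicle mice by size of the change (x axis, fold on the CPM plus 0.5 scale) with the number of genes (y axis), and the percent of each bin that also passed with the same sign in the separate IPA libraries. The bins hold 806, 1159, 648, 422 and 103 genes that rose and 925, 1490, 662, 104 and 0 that fell.

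The IPA-treated mice gave a second crush comparison with no library in common, although those mice also carried IPA and were dosed for 3 more days after crush. There, 23.4% of 15284 tested genes rose and 25.9% fell. Of the 3138 genes that rose in vehicle mice, 2753 also rose under IPA (87.7% of them, and 77.0% of the 3576 that rose under IPA), and of the 3181 that fell, 2836 also fell (89.2% of them, and 71.7% of 3953). None passed in opposite directions. The shared share rose with size, from 82.3% of the smallest rises to 91.4% of those from 1.5 to 2-fold and 100% of those over 4-fold. Among mid-size falls it was 98.6%. In a fit on all 12 libraries the difference between the crush effects passed for 0 of 15603 genes (limma, smallest adjusted p 0.639). There, 327 genes had an unadjusted p under 0.05, a smaller share than the 0.05 that would be met on average with no true difference. edgeR and DESeq2 were not run for that difference.

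The injury genes used to check the labels were high in all 3 crushed libraries. Atf3, the injury transcription factor of the ATF family, measured 10.7, 12.4 and 10.5 in the intact libraries and 525, 510.3 and 518 in the crushed ones, a change of 5.47 ± 0.068 (adjusted p 2.44e-10). Sox11, a growth transcription factor, measured 3.31, 2.96 and 3.51 in the intact libraries and 20.4, 24.3 and 24.3 in the crushed ones, and Gap43, a growth cone protein, 157, 149 and 188 intact and 543, 602 and 598 crushed. The 3 crushed libraries lay close together in these genes and far from the intact ones, so each library matched its label. Of the 55 tested classical genes 49 rose and none fell, with a median change of 1.55 against -0.01 for all tested genes. That list was drawn from what is known of nerve injury, so its direction is not independent evidence, and the largest changes named next are from outside it. Lists counted further below can share members with it, as the growth cone list does, and such members were not taken out of the counts.

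The largest rises outside the classical set came from genes of many kinds. Slc6a4, the serotonin transporter, measured 0.173, 0.379 and 0.232 in the intact libraries and 29.3, 33.5 and 30.4 in the crushed ones (5.38 ± 0.12, adjusted p 4.37e-09). Lmo7, a LIM and PDZ domain protein of cell junctions and the actin cytoskeleton, measured 5.2, 5.88 and 5.64 in the intact libraries and 117, 121 and 131 in the crushed ones (4.35 ± 0.072, adjusted p 1.75e-09). In both genes the lowest crushed library was many times the highest intact one, but Lmo7 started from a clear level in intact ganglia while Slc6a4 was near the floor of detection there. Xdh, the xanthine dehydrogenase of purine breakdown, was expressed in intact ganglia as well, at 4.72, 4.59 and 5.73 intact and 61, 67.6 and 70.5 crushed (3.60 ± 0.095). Rin1, a Ras effector that activates Rab5, went from 3 intact libraries at nearly the same level to a higher and also narrow range, at 1.02, 1.02 and 1.06 intact and 14.8, 17.4 and 18.7 crushed (3.5 ± 0.11). Adam8, a membrane metalloprotease, rose from 5.25 ± 1.03 to 87.9 ± 10.8 CPM (3.95 ± 0.14).

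Other genes in this group had little or no signal in intact ganglia. Fgf3, a fibroblast growth factor, measured 0.173, 0.152 and 0.381 intact and 18.5, 21.3 and 22.3 crushed (4.86 ± 0.14). Anxa10, an annexin, measured 0.116, 0.114 and 0.0165 intact and 11, 9.66 and 8.29 crushed (4.12 ± 0.13). Igfn1, which codes for an immunoglobulin and fibronectin domain protein, was the most variable of the set, with crushed library 3 well above the other crushed libraries: 0.752, 0.455 and 0.381 intact and 10.2, 11.9 and 19 crushed (3.76 ± 0.22, adjusted p 1.78e-06). Tmem88b, a transmembrane protein gene, rose by 4.30 ± 0.16. The predicted gene Gm5152 was close to absent before crush, at 0.0385, 0.019 and 0.0496 intact and 7.02, 7.28 and 6.39 crushed.

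**Figure D2:**
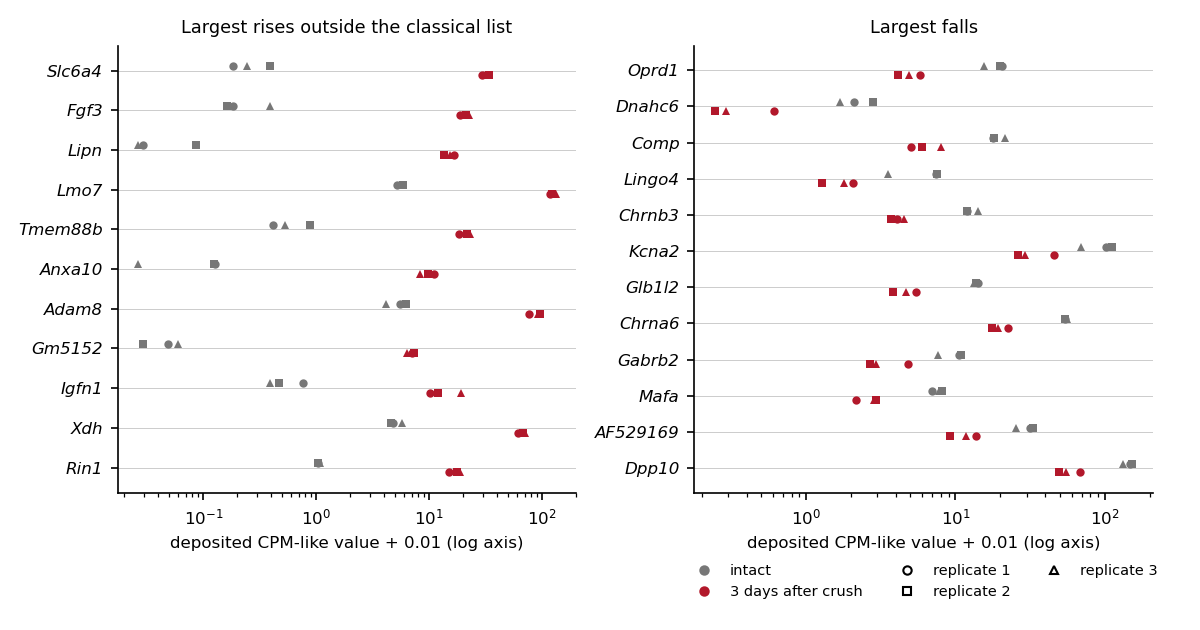
CPM plus 0.01 in each of the 6 libraries (x axis, log scale; grey points intact, red points crushed) for 11 of the 12 largest rises and the 12 largest falls outside the classical regeneration set. In every gene shown the 3 crushed libraries lie entirely on one side of the 3 intact ones; Slc6a4 goes from 0.173 to 0.379 up to 29.3 to 33.5 CPM and Oprd1 from 15.5 to 20.5 down to 4.10 to 5.75 CPM.

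The promoters of 4 of these genes carry the letters TGANTCA, where N is any base. These letters were searched as a loose form of the AP-1 motif, the site bound by Jun and by Atf3 with their partners. The 4 promoters are shown because each carried a match to a motif that was searched. They are the 250 bases before the start site as RefSeq places it on GRCm38.p6, read 5′ to 3′ on the gene's strand, with the motif TGANTCA in capitals. The motif reads the same on both strands. Of 19 genes examined (the 12 largest rises and the 7 label checks), 15 had a promoter entry. Lipn (a lipase gene) lies at chr19:34067108-34067357 on the plus strand with its match starting 148 bases before the start site. Tmem88b lies at chr4:155785875-155786124 on the minus strand with its match at 231 bases. This match reads TGAATCA, whereas every other match shown reads TGAGTCA, so it fits the loose form only. Anxa10 lies at chr8:62123194-62123443 on the minus strand with matches at 180 and 16 bases, and Sprr1a, a classical gene for a cornified envelope protein found in growth cones, lies at chr3:92485882-92486131 on the minus strand with matches at 146 and 116 bases.
Lipn: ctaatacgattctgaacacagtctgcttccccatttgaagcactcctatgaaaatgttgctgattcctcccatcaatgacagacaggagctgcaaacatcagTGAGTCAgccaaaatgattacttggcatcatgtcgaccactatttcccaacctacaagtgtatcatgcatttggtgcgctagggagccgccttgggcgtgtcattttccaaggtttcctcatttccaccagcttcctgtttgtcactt
Tmem88b: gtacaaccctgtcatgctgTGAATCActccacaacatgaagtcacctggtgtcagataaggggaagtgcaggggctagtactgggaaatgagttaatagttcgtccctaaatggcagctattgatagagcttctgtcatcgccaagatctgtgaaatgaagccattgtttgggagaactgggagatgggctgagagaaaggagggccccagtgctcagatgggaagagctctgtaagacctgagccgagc
Anxa10: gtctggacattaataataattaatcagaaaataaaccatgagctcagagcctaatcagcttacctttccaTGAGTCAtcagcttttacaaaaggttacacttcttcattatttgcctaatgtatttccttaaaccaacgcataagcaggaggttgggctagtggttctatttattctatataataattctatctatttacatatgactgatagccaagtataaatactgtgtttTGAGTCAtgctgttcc
Sprr1a: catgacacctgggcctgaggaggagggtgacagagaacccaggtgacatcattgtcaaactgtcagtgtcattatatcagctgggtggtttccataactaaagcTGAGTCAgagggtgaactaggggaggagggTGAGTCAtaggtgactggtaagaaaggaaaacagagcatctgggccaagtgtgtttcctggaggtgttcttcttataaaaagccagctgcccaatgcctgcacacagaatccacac
Among the tested genes with a promoter entry, the letters TGANTCA, with any base at the N, stood in 5.72% of 10839 such windows. They stood in 12.9% of 373 genes that rose more than 2-fold, in 20.9% of 67 that rose more than 4-fold and in 2.94% of 68 that fell more than 2-fold. The cyclic AMP motif TGACGTCA stood in 2.97% of all, 2.14% of the 2-fold rises, 1.49% of the 4-fold rises and 2.94% of the 2-fold falls. For the STAT motif TTCCNGGAA the shares in the same groups were 1.23%, 1.88%, 0% and 1.47%. These shares are descriptions of letters in a window, given without a test, and do not show that a factor is bound there.

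A small set of genes was close to absent in intact ganglia (0.1 CPM or less in all 3 libraries) and at 1 CPM or more in all 3 crushed ones. It had 13 members, and no gene made the reverse move. Lipn measured 0.0193, 0.0759 and 0.0165 in the intact libraries and 16.4, 13.6 and 15.3 in the crushed ones. The others were lower: Cd207, a C-type lectin known from Langerhans cells, reached 3.47 ± 0.344 CPM in crushed ganglia, the corticotropin-releasing factor family peptide Ucn 3.4 ± 0.59 CPM, and the peptide gene Grp 3.34 ± 0.482 CPM. Cyp24a1, the enzyme that breaks down active vitamin D, measured 0.0193, 0.019 and 0.0165 intact and 2.73, 2.56 and 2.37 crushed. Phox2a, a transcription factor known for autonomic neurons, measured 0.0385, 0.019 and 0 intact and 1.23, 1.47 and 1.56 crushed. The remaining members were Gm5152, Slamf1, Pnliprp2, Tmprss11f, Reg1, Sh2d1b2 and the pseudogene Sprr2j-ps, which had no read in any intact library and 1.19 ± 0.167 CPM after crush. Since the intact levels rest on a handful of reads, no fold change is given for these 13 genes.

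The largest falls came from genes of many kinds. Oprd1, the delta opioid receptor, measured 20.5, 20.0 and 15.5 in the intact libraries and 5.75, 4.1 and 4.86 in the crushed ones (-1.83 ± 0.14, adjusted p 9.39e-06). Comp, an extracellular matrix protein of the thrombospondin family, measured 18, 18.2 and 21.3 intact and 5.01, 5.94 and 8.04 crushed (-1.55 ± 0.15). Chrna6, a nicotinic receptor subunit, had intact libraries within a narrow range, at 54.5, 53.9 and 55.8 intact and 22.5, 17.6 and 19.2 crushed (-1.45 ± 0.087, adjusted p 2.29e-06). Lingo4, a leucine-rich repeat membrane protein, had intact library 3 below the other intact libraries, at 7.38, 7.51 and 3.51 intact and 2.07, 1.27 and 1.79 crushed (-1.53 ± 0.26, adjusted p 0.00124). Dpp10, an auxiliary subunit of Kv4 potassium channels, fell from 145 ± 10.1 to 57.5 ± 9.97 CPM (-1.34 ± 0.11). Glb1l2, a beta-galactosidase-like protein, fell from 13.7 ± 0.443 to 4.65 ± 0.839 CPM (-1.47 ± 0.12), AF529169 from 29.9 ± 3.91 to 11.5 ± 2.22 CPM (-1.35 ± 0.14), and Dnahc6, an axonemal dynein heavy chain, from 2.2 ± 0.566 to 0.371 ± 0.197 CPM (-1.63 ± 0.19). The crushed libraries lay below the intact ones in each of these genes, and no fall reached 4-fold on the scale of CPM plus 0.5, which understates the change of a low gene such as Dnahc6.

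Mid-size changes, from 1.5 to 2-fold with no overlap and a mean of at least 5 CPM, covered 340 genes that rose and 464 that fell. The 12 rises with the smallest p ran from translation and folate enzymes to a lipid carrier and a cerebellin. Eef1b2, a subunit of translation elongation factor 1, measured 98, 99.8 and 99.8 in the intact libraries and 202, 197 and 197 in the crushed ones (1.00 ± 0.048, adjusted p 5.17e-07). Cttn, the actin-binding protein cortactin, measured 128, 135 and 135 intact and 247, 269 and 277 crushed (0.99 ± 0.059), and Mthfd2, the mitochondrial folate enzyme, 25.6, 25.6 and 27.1 intact and 55, 51.7 and 51.4 crushed (1.00 ± 0.06). Adarb1, the RNA-editing enzyme ADAR2, measured 59.5, 65.8 and 63.5 intact and 118, 116 and 117 crushed (0.89 ± 0.056). Apod, the lipid carrier apolipoprotein D and a marker of fibroblasts, rose from 609 ± 28.8 to 1199 ± 48.5 CPM (0.98 ± 0.058), beside the higher sum of fibroblast markers given above. Ppp4r1, a regulatory subunit of protein phosphatase 4, rose by 0.95, the solute carrier Slc22a23 by 0.88, the cerebellin Cbln2 by 0.98, and Ankrd13a, Dhrs1, Myadm and Wrnip1 by 0.99, 0.90, 0.89 and 0.89.

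The mid-size falls with the smallest p were also of many kinds. Dkk3, of the dickkopf family, measured 175, 166 and 162 in the intact libraries and 92.2, 88.4 and 88.4 in the crushed ones (-0.90 ± 0.053, adjusted p 2.20e-06). Sorl1, a sorting receptor for the amyloid precursor protein, measured 310.1, 313 and 292 intact and 166, 144 and 152 crushed (-0.98 ± 0.063), and Smad9, a transducer of bone morphogenetic protein signals, 74.4, 76.2 and 72.1 intact and 39.5, 37.1 and 39.5 crushed (-0.93 ± 0.057). Each of these 3 had intact and crushed ranges that lay well apart although the change stayed under 2-fold. Scn4b, a beta subunit of sodium channels, measured 461, 452 and 466 intact and 226, 233 and 259 crushed (-0.94 ± 0.061), and Kcnk1, a leak potassium channel, 69.3, 68.8 and 69.8 intact and 38.9, 40.0 and 39.2 crushed (-0.81 ± 0.052). Sema7a, a membrane-anchored semaphorin, fell from 110.4 ± 5.47 to 56.9 ± 3.04 CPM (-0.95 ± 0.063). Gprasp2, a sorting protein for G protein-coupled receptors, changed by -0.99, and Kank4, Nipal3, Rnf157, Rassf4 and 3110047P20Rik by -0.83, -0.84, -0.77, -0.95 and -0.99.

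**Figure D3:**
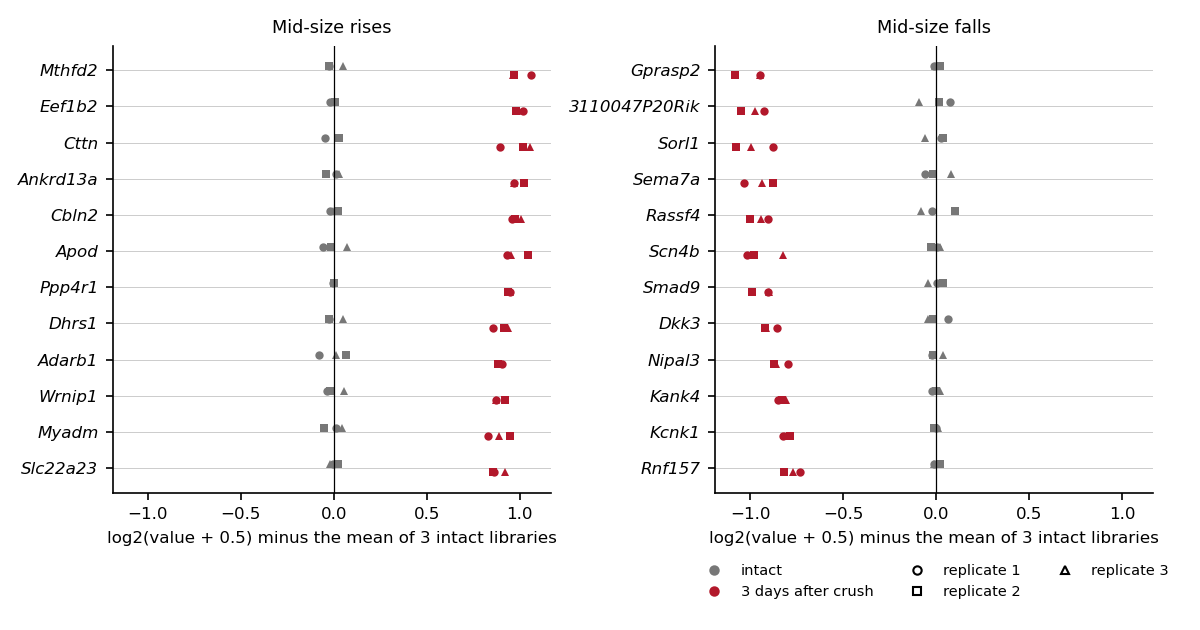
Each library's log2 CPM plus 0.5, relative to the mean of the intact libraries, for the 12 mid-size rises and the 12 mid-size falls with the smallest p. The points of the 2 groups are apart in every gene shown although each change lies between 1.5 and 2-fold.

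Sodium and potassium channel genes fell in most members. Of 17 tested voltage-gated sodium channel genes 13 fell and none rose, with a median change of -0.59, and 1 rose and 13 fell (median -0.64) in the trend-removed fit. Scn4b and Scn2b, beta subunits, changed by -0.94 and -0.77. Scn11a, the nociceptor channel Nav1.9, measured 448, 453 and 414 in the intact libraries and 299, 263 and 249 in the crushed ones (-0.70 ± 0.074), and Scn8a, the channel of nodes of Ranvier, 227, 236 and 201 intact and 142, 123 and 135 crushed (-0.72 ± 0.076). Of 82 tested potassium channel genes 52 fell and 8 rose, with a median of -0.49. The count of rises was 4 without crushed library 1, crushed library 2 or intact library 1 and 5 without crushed library 3. Kcna2, the Kv1 channel found beside nodes, measured 101, 112 and 68.9 intact and 45.5, 26.4 and 29 crushed (-1.48 ± 0.22, adjusted p 5.76e-04), with the third intact library and the first crushed one each toward the other group. Kcng4, a silent subunit that joins other channels, had narrower groups at 22.1, 22.1 and 22.7 intact and 9.89, 10.2 and 10.4 crushed (-1.09 ± 0.067).

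Split by subfamily after the values were seen, the potassium channel falls were not even. None of 15 tested Kcna to Kcnd genes rose and 12 fell (median -0.56), and all 9 of the tested silent subunits (Kcnf, Kcng, Kcns and Kcnv) fell (median -0.78). Of 9 auxiliary subunits (Kcnab, Kcnip and Kcne) 8 fell and none rose (median -0.49). Among 12 inward rectifiers (Kcnj) 6 fell and 1 rose (0 without intact library 1). The 12 leak channels (Kcnk) had 3 that fell (5 in the trend-removed fit), 3 that rose (1 without crushed library 1) and a median of -0.07 (-0.13 in the trend-removed fit). Kcnk16, an alkali-activated leak channel, was the largest rise, at 0.0963, 0.133 and 0.116 in the intact libraries and 4.36, 5.05 and 5.68 in the crushed ones (3.16 ± 0.12, adjusted p 1.32e-07).

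Calcium channel genes were mixed, with 9 of 21 lower, 3 higher and a median of -0.25. Cacna2d1, the auxiliary subunit to which gabapentin binds, measured 203, 219 and 191 in the intact libraries and 686, 532 and 586 in the crushed ones (1.55 ± 0.091, adjusted p 2.08e-06). Its paralog Cacna2d2 went the other way, at 36.1, 37.4 and 33.7 intact and 20.4, 20.9 and 21.5 crushed (-0.76 ± 0.066), as did the low-threshold channel Cacna1i, at 12.9, 13.2 and 12.7 intact and 8.02, 6.54 and 8.02 crushed (-0.75 ± 0.094). In each of these 3 genes the groups were apart. Of 31 tested transient receptor potential (TRP), Piezo, acid-sensing and other mechanosensory channel genes 15 fell and 5 rose (median -0.27), and the count of rises was 3 without crushed library 2 or crushed library 3. Trpm8, the cold receptor, measured 37.9, 36.9 and 33 intact and 20.1, 14.4 and 16 crushed (-1.08 ± 0.11), Trpm2, a channel opened by oxidative stress, 35.5, 34.4 and 34.7 intact and 19.8, 19.8 and 20.0 crushed (-0.79 ± 0.059), and the acid sensor Asic1 102, 96.1 and 101 intact and 52, 61.7 and 59.2 crushed (-0.79 ± 0.071). Of 20 chloride channel and anoctamin genes 5 rose and 1 fell (median 0.05), the falls being 2 without intact library 2 and 4 without crushed library 1, while 5 rose and 3 fell (median 0.09) in the trend-removed fit. The rises were led by Ano7 at 0.54, 0.284 and 0.314 intact and 2.94, 3.85 and 3.59 crushed (2.18 ± 0.15) and by Clic1 at 1.07. Of 18 ion pump genes 6 fell, among them the calcium pump genes Atp2b3 (-0.99) and Atp2b2 (-0.64); 2 rose, and that count was 0 without crushed library 3, intact library 1 or intact library 2 and 1 without intact library 3.

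Receptor subunits for fast transmitters fell more often than they rose, and a few rose in the same libraries. Of 13 tested nicotinic and 5-HT3 receptor genes 7 fell and 2 rose (median -0.86), and the count of rises was 1 without crushed library 1, crushed library 2 or crushed library 3. Htr3a and Htr3b, the subunits of the 5-HT3 serotonin receptor, measured 156, 152 and 169 in the intact libraries and 68.6, 59.1 and 69.1 in the crushed ones (-1.27 ± 0.073) and 21, 20.3 and 21.7 intact and 8.75, 7.52 and 7.93 crushed (-1.33 ± 0.08). Chrnb3, the partner of Chrna6, measured 12, 12 and 14.1 intact and 4.08, 3.7 and 4.53 crushed (-1.52 ± 0.10). The accessory nicotinic subunit Chrna5 moved up from a low level, at 0.482, 0.322 and 0.331 intact and 3.26, 2.85 and 2.79 crushed (1.98 ± 0.12, adjusted p 2.68e-06). Of 14 GABA-A and glycine receptor genes 6 fell and 2 rose (median -0.24). Gabrb2 measured 10.5, 10.9 and 7.69 intact and 4.77, 2.67 and 2.94 crushed (-1.39 ± 0.20), while Gabra5 measured 5.88, 5.9 and 6.12 intact and 15.5, 12.6 and 14.6 crushed (1.18 ± 0.093) and Gabrg1 33.9, 35.8 and 27.3 intact and 71.7, 55.3 and 57.1 crushed (0.91 ± 0.12). These 3 genes code for subunits of 1 receptor class that moved in opposite directions in the same libraries. Of 21 glutamate receptor genes 11 fell and none rose (median -0.33), among them the AMPA receptor subunits Gria2 (-1.09) and Gria4 (-0.83) and the NMDA receptor subunit Grin1 (-0.71); 1 rose and 12 fell (median -0.28) in the trend-removed fit.

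**Figure D4:**
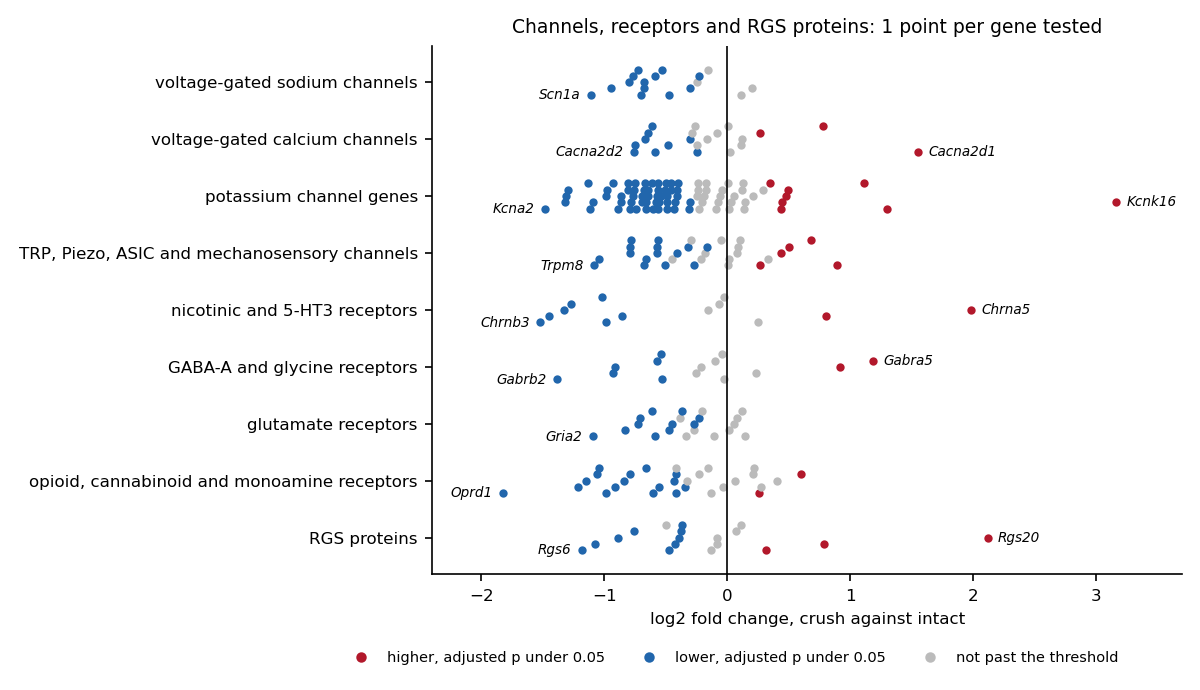
Log2 change after crush (x axis, CPM plus 0.5) of each tested gene (points) in ion channel, receptor and RGS families; red points rose, blue points fell and grey points did not pass the test. Most points lie left of 0, and Kcnk16, Cacna2d1, Chrna5 and Gabra5 stand to the right of it.

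G protein-coupled receptor lists were mixed. Of 29 tested opioid, cannabinoid and monoamine receptor genes 16 fell and 2 rose (median -0.42), and the count of rises was 1 without crushed library 2, crushed library 3 or intact library 1 and 1 in the trend-removed fit. Oprl1, the nociceptin receptor, measured 22.6, 21.4 and 20.7 in the intact libraries and 9.39, 8.88 and 8.73 in the crushed ones (-1.21 ± 0.073), the serotonin receptor Htr7 18.9, 18.2 and 17 intact and 9.33, 7.41 and 8.47 crushed (-1.06 ± 0.095) and the adrenergic receptor Adra2c 26.6, 25.7 and 30.6 intact and 12.1, 14.1 and 14.9 crushed (-0.99 ± 0.098). Of 33 peptide receptor genes 11 fell and 9 rose (median -0.03, and -0.11 in the trend-removed fit). Cckar, a cholecystokinin receptor, measured 25, 25.8 and 25.7 intact and 66.4, 63.2 and 63.3 crushed (1.32 ± 0.056, adjusted p 2.57e-07), whereas the angiotensin receptors Agtr1b and Agtr1a measured 7.73, 7.34 and 6.34 intact and 3.2, 2.54 and 2.78 crushed (-1.19 ± 0.11) and 15.8, 16.1 and 15.9 intact and 8.33, 7.08 and 8.78 crushed (-0.95 ± 0.091). Purinergic receptors were split evenly, with 5 of 15 higher and 5 lower (33.3% each way, against 20.5% and 20.8% of all tested genes). The count of rises was 3 without crushed library 3. P2ry6, a receptor for UDP, rose from 1.14 ± 0.112 to 3.36 ± 0.242 CPM (1.23 ± 0.11) and P2ry1, a receptor for ADP, fell from 53.3 ± 2.16 to 28.4 ± 3.74 CPM (-0.90 ± 0.093). Of 18 adhesion receptors 3 rose and 7 fell, and Gpr133 stood apart with 5.93, 6.75 and 6.64 intact and 42.2, 44.2 and 46.3 crushed (2.69 ± 0.077).

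Among 40 trophic factor and cytokine receptor genes 14 fell (35%) and 10 rose (25%), against 20.8% and 20.5% of all tested genes (median -0.07). Acvr1c, a type I receptor for activins and Nodal, measured 0.27, 0.209 and 0.182 in the intact libraries and 6.13, 4.16 and 3.91 in the crushed ones (2.84 ± 0.16, adjusted p 1.53e-06), with crushed library 1 the highest. Acvr1, a type I receptor for bone morphogenetic proteins and activins, measured 21.6, 21 and 19.1 intact and 44, 45.5 and 45.5 crushed (1.11 ± 0.066). The receptors of the GDNF family were divided. Gfra1, which binds GDNF, measured 134, 141 and 134 intact and 419, 406 and 413 crushed (1.60 ± 0.049) and Gfra3, which binds artemin, 52.9, 50.7 and 58.1 intact and 93.5, 106 and 104 crushed (0.90 ± 0.072), while Gfra2, which binds neurturin, measured 179.7, 172 and 198 intact and 112, 119 and 110.3 crushed (-0.68 ± 0.066). Of 43 tested secreted growth factors and cytokines 14 rose (32.6%) and 9 fell (20.9%), against 20.5% and 20.8% of all tested genes. The median was 0.11, and -0.03 in the trend-removed fit. Csf1, the macrophage colony-stimulating factor, measured 17.1, 17.3 and 15.7 intact and 133, 138 and 142 crushed (3.01 ± 0.061) and Inhbb, an activin subunit, 9.5, 10.3 and 10.7 intact and 45.5, 53.9 and 55.7 crushed (2.29 ± 0.089), while neuregulin 1, Nrg1, changed by -0.53. Of 8 genes for SOCS proteins, which damp cytokine signals, 4 rose and 2 fell, led by Socs3 at 7.11, 8.4 and 10.2 intact and 26.6, 30.9 and 33.6 crushed (1.78 ± 0.13) and Socs1 at 1.33, 1.35 and 2 intact and 3.9, 4.85 and 4.34 crushed.

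Most transcription factors that hold the identity of sensory neurons fell. Of 31 tested 21 fell and 1 rose (median -0.37), and the 1 that rose was Klf7 (0.28 ± 0.059); rises were 2 without crushed library 2, 2 with edgeR and 3 in the trend-removed fit. Etv1, known for proprioceptors, measured 82.2, 89.6 and 80.5 in the intact libraries and 43.2, 36.3 and 40.0 in the crushed ones (-1.07 ± 0.075, adjusted p 6.31e-06), Esrrg, an estrogen-related receptor, 36.2, 37.8 and 33.7 intact and 17.3, 15.5 and 16.1 crushed (-1.12 ± 0.073), and Prdm12, required for nociceptors, 183, 181 and 200.1 intact and 112, 115 and 119.6 crushed (-0.70 ± 0.058). Mafa measured 6.92, 8.17 and 7.81 intact and 2.15, 2.92 and 2.86 crushed (-1.38 ± 0.12). These cover genes of both large and small neurons, and each crushed library lay below each intact one. Of 29 Hox genes 11 fell (median -0.17), and 1 rose and 18 fell (median -0.28) in the trend-removed fit. The falls include Hoxd1 at 20.1, 22.2 and 24.2 intact and 10.2, 9.95 and 10.6 crushed (-1.07 ± 0.084), Hoxb6 at 9.81, 9.99 and 9.78 intact and 3.98, 4.7 and 4.94 crushed (-1.04 ± 0.096) and Hoxb8 at 17.5, 17.2 and 19.6 intact and 8.1, 9.66 and 9.92 crushed (-0.94 ± 0.096). The count of rises was 0 without crushed library 2, crushed library 3 or intact library 2 and 2 without crushed library 1. Of 38 nuclear receptors 16 fell and 4 rose (median -0.18), among the falls Esrrb (-0.89), an estrogen-related receptor, but the count of falls was 10 without intact library 1 or intact library 2 and the count of rises 2 without crushed library 2. In contrast, of 34 injury and growth transcription factors 20 rose and 4 fell (median 0.48), with falls of 2 without intact library 1 or intact library 2. Beyond the label checks these included Nfil3, a basic leucine zipper repressor, at 6.61, 6.41 and 7.21 intact and 26, 31.5 and 31.1 crushed (2.05 ± 0.093), and Bhlhe41 (1.17) and Klf6 (1.17). Of 14 SOX factors 3 rose, namely Sox11, Sox7 (1.60) and Sox9 (1.53), or 5 without crushed library 1, and 1 fell, or 0 without crushed library 1, crushed library 2, intact library 1, intact library 2 or intact library 3, 0 with edgeR, 2 with the median-of-ratios scaling and 4 in the trend-removed fit. The 345 tested zinc finger genes named Zfp had 22 that rose (14 without intact library 1 and 36 without crushed library 1) and 56 that fell (21 without intact library 1, 23 without intact library 2, 26 without crushed library 2 or crushed library 3 and 101 without crushed library 1), smaller shares than over all tested genes in the fit on all 6 libraries.

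Adhesion, node and synapse genes also leaned down. Of 46 neural adhesion, node and paranode genes 27 fell and 8 rose (median -0.42), and the count of rises was 5 without crushed library 3 or intact library 1. Chl1, a close homolog of L1, went up at 63.6, 63.5 and 59.1 in the intact libraries and 240.2, 197 and 203 in the crushed ones (1.77 ± 0.078), while Dscam (-0.75) and Flrt1 (-0.87) fell. Of 20 cadherins 10 fell and 3 rose (median -0.47), and the count of rises was 1 without crushed library 3. Cdh10 measured 12.1, 13.1 and 11.6 intact and 8.43, 6.06 and 6.66 crushed (-0.77 ± 0.12). Of 49 synaptic vesicle and SNARE genes 27 fell and 5 rose (median -0.22), with Snap25 at 1329, 1301 and 1305 intact and 843, 766 and 811 crushed (-0.70 ± 0.055), the calcium sensor Syt7 at -0.73 and complexin Cplx2 at -0.76. Of 18 genes for the processing and storage of peptides 10 fell and 4 rose (median -0.23). The granins Scg2 (-0.57) and Chgb (-0.51) fell while Vgf, a secreted granin-like protein, measured 136, 110.3 and 167 intact and 493, 690.4 and 728 crushed (2.20 ± 0.17).

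Axon guidance genes held some of the largest rises beside falls. Sema6a, a transmembrane semaphorin, measured 11.9, 13.9 and 15.3 in the intact libraries and 134, 163 and 172 in the crushed ones (3.46 ± 0.11, adjusted p 3.98e-08). Plxna4, a receptor for class 3 and class 6 semaphorins, measured 86.8, 85.7 and 71.9 intact and 208, 161 and 177 crushed (1.15 ± 0.10). Of 30 tested semaphorins, plexins and neuropilins 7 rose (23.3%) and 8 fell (26.7%), near the shares of all tested genes (20.5% and 20.8%). The median was -0.04, so the family as a whole did not lean. Draxin, a secreted guidance protein, measured 3.1, 2.71 and 2.9 intact and 16.9, 15.6 and 16.5 crushed (2.31 ± 0.086) and the netrin receptor Unc5b 16.6, 15.6 and 17.1 intact and 7.32, 7.04 and 7.45 crushed (-1.12 ± 0.076). Of 20 ephrins and Eph receptors 3 rose and 7 fell (median -0.22), where the falls were 3 without intact library 1 and 4 without intact library 2. The largest rise was Epha3 at 1.6, 1.67 and 1.29 intact and 4.73, 4.68 and 3.95 crushed (1.30 ± 0.12).

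Kinase and RGS genes fell more often than they rose, and a few rose strongly. Of 36 protein kinase A, C and calmodulin kinase genes 17 fell and 5 rose (median -0.20). Camk1, calmodulin-dependent kinase I, measured 32.8, 33 and 34.4 in the intact libraries and 176, 184 and 185 in the crushed ones (2.43 ± 0.053, adjusted p 4.34e-09), while its relatives Camk1g (29.8, 27.3 and 29 intact and 16.3, 14.7 and 15.2 crushed) and Camk2a (187, 181 and 190.2 intact and 116, 119 and 121 crushed) changed by -0.88 ± 0.071 and -0.64 ± 0.05. Of 18 RGS proteins, which shorten G protein signals, 9 fell and 3 rose (median -0.37). Rgs20 measured 2.81, 2.65 and 2.86 intact and 13.7, 14 and 13.5 crushed (2.12 ± 0.082) and Rgs6 17.9, 19.4 and 14 intact and 7.82, 6.64 and 7.17 crushed (-1.18 ± 0.12), each with narrow groups in the crushed libraries. Of 28 adenylyl cyclases and phosphodiesterases 7 rose and 8 fell (25% and 28.6%, against 20.5% and 20.8% of all tested genes). The falls were 5 without crushed library 3, intact library 1 or intact library 2. Pde1a and Pde1c, phosphodiesterases stimulated by calmodulin, measured 6.9, 6.92 and 6.09 intact and 27.4, 21.8 and 25.1 crushed (1.82 ± 0.099) and 77.4, 79.1 and 69.8 intact and 209.9, 172 and 179 crushed (1.30 ± 0.083).

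Of 35 tyrosine phosphatase genes 10 rose (28.6%) and 11 fell (31.4%), with a median of -0.01. The falls were 7 without intact library 2. The shares over all tested genes were 20.5% and 20.8%. Ptpro, a receptor phosphatase, measured 9.6, 9.97 and 10.5 in the intact libraries and 35.4, 36.1 and 34.3 in the crushed ones (1.77 ± 0.067), Ptpn5, the neuronal phosphatase STEP, 6.36, 4.65 and 4.95 intact and 16.2, 21.1 and 16.3 crushed (1.66 ± 0.14), and Ptpn1, which acts on the insulin receptor, 32.6, 31.3 and 34.7 intact and 67.7, 77.2 and 72.5 crushed (1.13 ± 0.069). Of 21 dual-specificity phosphatases 9 rose and 2 fell, with rises of 5 without crushed library 2 or crushed library 3.

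Most growth cone genes rose, while the neurofilament genes Nefh and Nefm fell. Of 40 growth cone and axon cytoskeleton genes 26 rose, 8 of them more than 2-fold, and 3 fell, or 5 without crushed library 1 (median 0.41); 25 rose and 7 fell (median 0.32) in the trend-removed fit. Stmn4, of the stathmin family of tubulin-binding proteins, measured 11.6, 11.5 and 12.5 in the intact libraries and 106, 107 and 105 in the crushed ones (3.10 ± 0.059). Of 16 tubulin genes 8 rose and 3 fell (median 0.19), whereas 7 rose and 6 fell (median 0.04) in the trend-removed fit. Tubb6 measured 15.8, 16.2 and 17.4 intact and 124, 143 and 146 crushed (3.02 ± 0.075) and Tuba1c 6.69, 5.95 and 7.12 intact and 41.3, 46.8 and 46.3 crushed (2.68 ± 0.086); tubulins are near-identical in places, so reads may have been split between them. The neurofilament genes Nefh and Nefm changed by -0.55 and -0.47, while Gfap, a glial filament, measured 0.732, 0.815 and 1.03 intact and 2.61, 4.9 and 3.46 crushed (1.58 ± 0.19) and internexin, Ina, rose by 0.48.

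**Figure D5:**
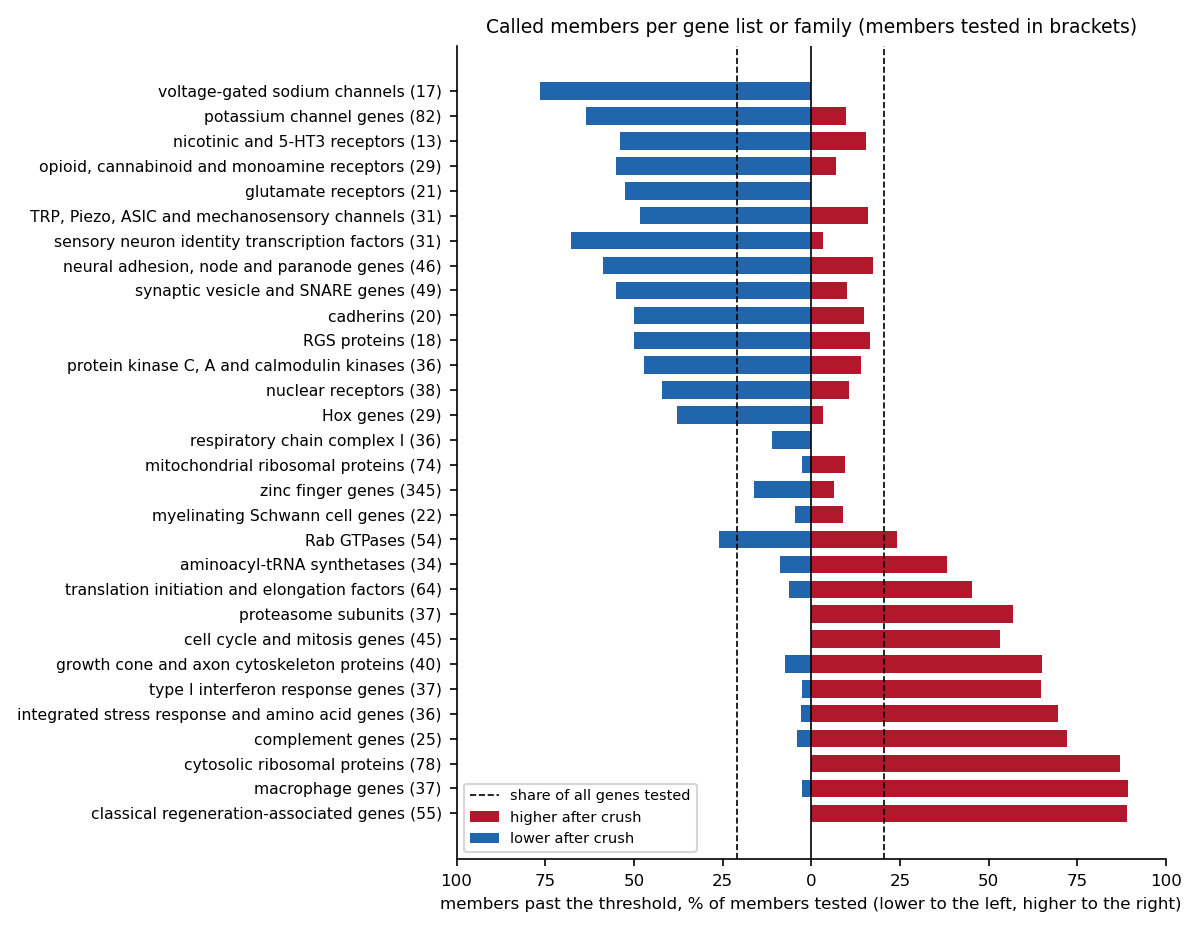
Percent of the tested genes of each list or family shown that rose (right of 0, red) and fell (left of 0) after crush, with the same percents over all 15298 tested genes (20.5% and 20.8%) as dashed lines. Ribosomal, macrophage and stress response lists extend to the right, and channel, receptor and identity lists to the left.

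Cytosolic ribosomal protein genes rose by small amounts in most members, and the other lists for making protein rose in a smaller share. Of 78 tested cytosolic ribosomal protein genes 68 rose and none fell, with a median of 0.36, while 50 rose and 1 fell (median 0.21) in the trend-removed fit. Rpl12 measured 62.5, 55.2 and 59 in the intact libraries and 91, 97 and 97.1 in the crushed ones (0.69 ± 0.063) and Rps3 134, 134 and 140.2 intact and 202, 213 and 209 crushed (0.61 ± 0.05), changes well under 2-fold with no overlap. Of 74 mitochondrial ribosomal protein genes 7 rose and 2 fell (median 0.05), whereas 9 rose and 21 fell (median -0.06) in the trend-removed fit. The falls were also 0 without crushed library 3, intact library 1 or intact library 2, 1 without intact library 3 and 6 without crushed library 1, and 1 with edgeR. Of 64 translation factors 29 rose and 4 fell (median 0.18), and the count of falls was 8 without crushed library 1 and 7 in the trend-removed fit. Of 45 nucleolar and ribosome biogenesis genes 19 rose and 1 fell (median 0.20), but the count of rises was 10 without intact library 1, 11 without crushed library 3 and 12 without intact library 2 and that of falls 0 without crushed library 2, crushed library 3, intact library 1 or intact library 2 and 2 without crushed library 1, and 3 in the trend-removed fit. The 34 tested aminoacyl-tRNA synthetases were split by symbol after the values were seen. Of 17 whose symbols do not end in 2 (the mitochondrial enzymes mostly do), 13 rose and none fell (median 0.35), and of 17 whose symbols do, none rose (1 without crushed library 1) and 3 fell, or 5 in the trend-removed fit (median -0.08). Cars, which charges cysteine tRNA, measured 22.3, 24.6 and 24.8 intact and 39.2, 43.1 and 43.8 crushed (0.80 ± 0.072) and Gars, which charges glycine tRNA, 257, 254 and 258 intact and 407, 406 and 396 crushed (0.65 ± 0.047).

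Most genes of amino acid stress rose. Of 36 integrated stress response and amino acid genes 25 rose and 1 fell, or 2 in the trend-removed fit (median 0.47). Chac1, a glutathione-degrading enzyme, measured 3.99, 3.91 and 5.11 in the intact libraries and 18.1, 21.7 and 24 in the crushed ones (2.17 ± 0.13), the translation repressor Eif4ebp1 4.05, 4.04 and 4.24 intact and 10.7, 12.1 and 12.7 crushed (1.42 ± 0.092), and the transporter Slc1a4 69.1, 71.4 and 75.6 intact and 171, 181 and 188 crushed (1.32 ± 0.059). By contrast, of 34 endoplasmic reticulum chaperone and unfolded protein response genes 6 rose (3 without intact library 1) and 5 fell (2 without intact library 2, 3 without crushed library 2, crushed library 3 or intact library 3 and 8 without crushed library 1), with a median of -0.02, and 5 rose and 10 fell (median -0.04) in the trend-removed fit. Of 25 heat shock genes 6 rose and 5 fell (8 without crushed library 1), also with a median of -0.02, and 7 rose and 9 fell (median -0.11) in the trend-removed fit. The small heat shock protein Hspb1 measured 157, 164 and 191 intact and 397, 496 and 469.8 crushed (1.41 ± 0.097) while Hspa1b, whose reads may be shared with its near-identical neighbour Hspa1a, changed by -0.98. Of 37 proteasome subunits 21 rose and none fell, or 1 without crushed library 1 (median 0.22), with Psmd8 at 86.3, 81.5 and 85 intact and 125, 124 and 129 crushed (0.58 ± 0.052), and 19 rose and 1 fell (median 0.10) in the trend-removed fit. Of 23 arginase and polyamine genes 11 rose and 2 fell, or 4 in the trend-removed fit. Odc1, the first enzyme of polyamine synthesis, measured 49.7, 52.9 and 53.6 intact and 114, 118 and 119.9 crushed (1.17 ± 0.055) and Arg2, the mitochondrial arginase, 3.37, 2.83 and 2.73 intact and 8.29, 8.46 and 7.44 crushed (1.30 ± 0.10), while Ass1, which makes argininosuccinate, changed by -0.70.

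The number of respiratory chain genes that fell depended on whether the trend on GC content and length was removed. Of 36 tested complex I genes none rose, or 1 without crushed library 1, and 4 fell (median -0.03), whereas none rose and 24 fell (median -0.20) in the trend-removed fit. The falls numbered 2 without crushed library 2, intact library 1 or intact library 3 and 8 without crushed library 1. Of 45 genes of complexes II to V 2 rose (1 without crushed library 3, intact library 1 or intact library 2 and 6 without crushed library 1) and 6 fell (median 0.03), and the falls were 1 without crushed library 2, crushed library 3, intact library 1 or intact library 2 and 3 without intact library 3, whereas 1 rose and 17 fell (median -0.12) in the trend-removed fit. Of 26 glycolysis genes 12 rose and 5 fell, or 8 in the trend-removed fit (median 0.21), with the glucose transporter Slc2a1 at 35.1, 35 and 39.2 in the intact libraries and 74.9, 90.1 and 86.4 in the crushed ones (1.19 ± 0.081) and the lactate transporter Slc16a3 at 0.70. Of 24 cholesterol synthesis genes 6 rose and 4 fell (25% and 16.7%, against 20.5% and 20.8% of all tested genes). Single genes moved far more than their families: the desaturase-like Fads3 measured 65.6, 63.4 and 67.3 intact and 154, 164 and 167 crushed (1.30 ± 0.056), the cholesterol synthesis enzyme Hsd17b7 70.7, 71.4 and 68.8 intact and 181, 147 and 176 crushed (1.24 ± 0.078), and Abca1, which exports cholesterol, 54.3, 60.0 and 50.9 intact and 228, 209 and 206 crushed (1.95 ± 0.072). Of 28 tested cytochrome P450 genes 7 rose and 7 fell (25% each way, against 20.5% and 20.8% of all tested genes). The rises were 4 without crushed library 2 and the falls 4 without crushed library 2, intact library 1 or intact library 2. Cyp4b1 measured 1.54, 1.61 and 1.92 intact and 15.4, 17 and 16.7 crushed (2.95 ± 0.099), the retinoic acid hydroxylase Cyp26a1 0.193, 0.0948 and 0.0827 intact and 2.17, 3.18 and 2.15 crushed (2.25 ± 0.16) and Cyp1b1 35.3, 33.1 and 35.8 intact and 107, 94.7 and 96.8 crushed (1.5 ± 0.066).

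Macrophage, chemokine, complement and interferon response genes rose in most members, beside the rise of the macrophage markers given above. Of 37 macrophage genes 33 rose, 26 of them more than 2-fold, and 1 fell (median 1.23). C1qa, the complement subunit made by macrophages, measured 5.99, 6.24 and 8.47 in the intact libraries and 24.5, 28 and 27.2 in the crushed ones (1.88 ± 0.12), and the mannose receptor Mrc1 6.74, 7.98 and 6.8 intact and 27.9, 24.9 and 25.6 crushed (1.80 ± 0.089). Of 17 chemokines 10 rose and 1 fell, or 2 in the trend-removed fit (median 0.77), with the monocyte attractants Ccl8 at 0.0193, 0.114 and 0.0827 intact and 2.41, 2.51 and 2.11 crushed (2.31 ± 0.12) and Ccl7 at 0.443, 0.379 and 0.199 intact and 2.35, 2.85 and 1.81 crushed (1.75 ± 0.17). Of 25 complement genes 18 rose and 1 fell, or 3 in the trend-removed fit (median 0.50), and the 37 tested genes of the type I interferon response had 24 rises and 1 fall (median 0.46, or 0.30 in the trend-removed fit). The count of interferon genes that fell was 0 without crushed library 2, crushed library 3, intact library 2 or intact library 3 and 2 without crushed library 1 and 2 in the trend-removed fit. Other immune lists rose in fewer members. Of 21 genes of MHC class I and antigen processing 9 rose (5 without intact library 1) and none fell (1 without crushed library 1 or in the trend-removed fit; median 0.16). Of 7 MHC class II genes 2 rose, but the count was 0 without crushed library 2, crushed library 3, intact library 1 or intact library 2 and 4 without intact library 3, and none rose and 1 fell (median 0.13) in the trend-removed fit. Of 17 neutrophil genes 2 rose, and the count was 0 without crushed library 2 or crushed library 3, 1 without intact library 2 and 5 without intact library 3 and 1 in the trend-removed fit. Of 8 mast cell and eosinophil genes 2 rose (1 without crushed library 1, crushed library 2 or crushed library 3) and 1 fell (2 in the trend-removed fit). The largest change in that list was the 5.38 of Slc6a4, the serotonin transporter named above. None of the 4 mast cell markers passed the test. The macrophage marker sum lay at 69.4 to 75.6 CPM in the 3 crushed libraries against 20.7 to 26.0 CPM in the intact ones, and its part in these rises was not tested.

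Interleukin receptors rose more often than they fell, and the tumor necrosis factor class rose at about the share of all tested genes. Of 34 Toll-like and interleukin receptor genes 17 rose and 5 fell (median 0.36), the falls being 2 without intact library 2 and 3 without intact library 1. Il17ra, the interleukin 17 receptor, measured 2.68, 2.98 and 3.56 in the intact libraries and 16.4, 21.9 and 22.7 in the crushed ones (2.54 ± 0.14), Il13ra1 8.67, 8.51 and 7.86 intact and 29.5, 23.9 and 25.3 crushed (1.59 ± 0.092), and Il4ra 41.6, 39.4 and 44.6 intact and 93, 113 and 104 crushed (1.29 ± 0.08). Of 30 tumor necrosis factor ligands, receptors and TRAF genes 7 rose (23.3%, against 20.5% of all tested genes) and 3 fell (median 0.09, or 0.03 in the trend-removed fit), with falls of 1 without crushed library 3 or intact library 1. Tnfrsf8, also called CD30, measured 0.154, 0.0759 and 0.149 intact and 4.06, 4.74 and 6.01 crushed (3.10 ± 0.15) and Tnfrsf12a, the receptor for TWEAK, 5.65, 4.36 and 6.16 intact and 20.4, 24.9 and 26.9 crushed (2.06 ± 0.14). Of 25 lymphocyte genes listed, 3 passed the filter and none of them rose.

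The cell cycle list rose, mostly at low levels. Of 45 tested genes 24 rose and none fell (median 0.42). Prc1, a spindle midzone protein, measured 3.3, 3.58 and 3.54 in the intact libraries and 20.4, 18.1 and 19.1 in the crushed ones (2.31 ± 0.084), and Mcm6, of the replication helicase, 6.42, 7.36 and 6.87 intact and 16.4, 13.7 and 13.6 crushed (1.03 ± 0.096). Of 26 tested histone genes 12 rose and none fell, or 2 in the trend-removed fit (median 0.33), led by the linker histone genes Hist1h1d at 0.963, 0.872 and 0.943 intact and 4.91, 4.96 and 5.23 crushed (1.96 ± 0.097) and Hist1h1c at 57.3, 55.9 and 70.2 intact and 131, 166 and 173 crushed (1.35 ± 0.12). Histone genes are near-identical copies and most lack a poly(A) tail, so these values are uncertain in libraries made from poly(A) RNA. Of 45 p53, DNA damage and cell death genes 21 rose and 6 fell (median 0.28), and 23 rose and 11 fell (median 0.25) in the trend-removed fit. Gadd45a and Gadd45g, stress sensors of DNA damage, changed by 3.15 and 2.13, the cell cycle inhibitor Cdkn1a measured 65.3, 69.7 and 74.2 intact and 235, 271 and 259 crushed (1.86 ± 0.07), and the death gene Pmaip1 2.02, 1.8 and 1.65 intact and 6.21, 6.57 and 6.03 crushed (1.54 ± 0.10).

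Matrix, adhesion and protease families changed by member. Rises took 27.6% of integrins, 27.3% of laminins and 27.8% of metalloproteinases and their inhibitors, against 20.5% of all tested genes. Falls took 17.2%, 0% and 11.1% of them, against 20.8%. Of 29 integrins 8 rose and 5 fell, with rises of 5 without crushed library 2 or intact library 1 and falls of 0 without crushed library 3 or intact library 1, 1 without intact library 2 and 2 without crushed library 2 or intact library 3. Itga7, a laminin receptor, measured 144, 146 and 159 in the intact libraries and 643, 802 and 859 in the crushed ones (2.35 ± 0.099), and the shared beta subunit Itgb1 rose by 0.77. Of 11 laminin chains 3 rose (1 without crushed library 2) and none fell, led by Lamb3 at 0.193, 0.114 and 0.248 intact and 2.74, 3.39 and 3.32 crushed (2.42 ± 0.13). Syndecan 1, Sdc1, a heparan sulfate proteoglycan, measured 22.5, 21.6 and 26.8 intact and 145, 176 and 176 crushed (2.78 ± 0.10), and Timp1, an inhibitor of metalloproteinases, 0.809, 1 and 1.11 intact and 9.97, 10.8 and 9.47 crushed (2.85 ± 0.11). Mmp16, a membrane metalloproteinase, measured 6.82, 7.93 and 6.19 intact and 53.3, 45.8 and 50.5 crushed (2.76 ± 0.098), in a list where 5 of 18 rose and 2 fell. Of 44 chondroitin and heparan sulfate enzymes 6 rose and 14 fell (median -0.09). Split after the values were seen, 9 of 14 heparan sulfotransferases (Hs3st, Hs6st and Ndst symbols) fell and 1 rose (median -0.55), against 5 of 30 in each direction among the others (median -0.03, with falls of 3 without intact library 1 and 8 in the trend-removed fit). Chst2, a sulfotransferase, measured 71.9, 74 and 85.1 intact and 219.7, 248 and 256 crushed (1.64 ± 0.081) and Hs3st2, which adds 3-O-sulfate to heparan, 54, 59.1 and 59.7 intact and 32.7, 36.1 and 32.5 crushed (-0.76 ± 0.068). Of 41 sialyl-, fucosyl- and N-acetylgalactosaminyltransferases 6 rose and 15 fell (median -0.08), and Galnt6, which starts O-linked sugars, measured 2.24, 2.09 and 2.35 intact and 15.2, 16.6 and 15.9 crushed (2.59 ± 0.087).

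The myelinating Schwann cell and satellite glia lists had few members past the test as reported and more in the trend-removed fit. In the list of repair and immature Schwann cell genes, 7 of 20 tested rose (35%, against 20.5% of all tested genes). There 2 fell (median 0.04), while 7 rose and 4 fell (median -0.01) in the trend-removed fit. Of 22 tested myelinating Schwann cell genes 2 rose and 1 fell (median -0.01), and those counts were 1 without crushed library 3, intact library 1 or intact library 2 and 0 without crushed library 3 or intact library 2, while 3 rose and 8 fell (median -0.09) in the trend-removed fit. The rises included Gldn (0.24), and the fall was Ugt8a (-0.28); Gldn and Ugt8a each lost the call in some of those fits. Of 22 satellite glia genes 3 rose and 4 fell (median -0.10), and the count of rises was 5 without crushed library 1, while 4 rose and 8 fell (median -0.07) in the trend-removed fit. Glul measured 267, 286 and 321 in the intact libraries and 483, 539 and 540.0 in the crushed ones (0.84 ± 0.077, adjusted p 3.39e-05), and the inward rectifier Kcnj3 20.5, 21.4 and 19.3 intact and 12, 10.3 and 10.2 crushed (-0.89 ± 0.086). Of 27 fibroblast and meningeal genes 7 rose and 1 fell (median 0.30), where the rises were 11 without intact library 3 and 13 without crushed library 1, and 11 rose and 2 fell (median 0.27) in the trend-removed fit. Of 18 skeletal muscle genes 8 rose and 1 fell, but the rises were 1 without intact library 2, 2 without intact library 1, 4 without crushed library 1, crushed library 3 or intact library 3 and 15 without crushed library 2 and 14 with edgeR, the fall was 0 without crushed library 2 or intact library 1, and the muscle marker sum was at its lowest among crushed libraries in library 2.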

How the data were processed

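RNA-seq values of 6 vehicle libraries (3 intact, 3 crushed) were analysed, and the 6 IPA libraries were used for 1 look-up and 1 fit over all 12. The libraries were poly(A)-selected and directional, from RNA with a RIN above 8, per the labels' protocols. Per the submitters' processing notes, the authors worked in R 3.5.0 with limma 3.38.3 and edgeR 3.24.3, checked reads with FastQC 0.10.1 and named STAR 2.7.0 and the mm10 build. How reads were counted (tool, strand, gene models) is not given in the sources used here, so reads of overlapping and antisense genes cannot be told apart. The deposited table is labelled FPKM, but its values are CPM-like: in 100% of values per library they are whole multiples (tolerance 1e-06) of 1 read, with no division by length. It lists 44345 identifiers, 38253 of them Ensembl identifiers and 6092 others; names are the table's own.

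The CPM values the authors deposited were taken as log2(CPM + 0.5), filtered at 0.5 CPM in at least 3 of 6 libraries and tested with limma 3.58.1 (trend, 4 residual degrees of freedom, R 4.3.3) with Benjamini-Hochberg adjustment over 15298 genes at 0.05. edgeR 4.0.16 on the recovered reads called 6294 genes; DESeq2 1.42.0, another scaling, filter and pseudocount, array weights, a replicate block and leaving out each library were also tried. The fit was tested on simulated data with known changes. With the right sign it called 8 of 50 genes changed 1.25-fold and 34 of 50 changed 1.5-fold. At 2-fold it called 46 of 50, and at 4-fold 50 of 50. Only 200 of 15298 genes were changed there, a far smaller part than passed in the real libraries, so these shares need not carry over. The labels call the libraries of a group biological triplicates, each a pool of 2 mice, so p-values measure the spread between pools.

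The gene lists, families and naming rule were chosen with earlier results of these data known. Named genes were the 12 largest rises and falls outside the classical set (mean of at least 1 CPM, no overlap), the 12 mid-size rises and falls of smallest p (mean of at least 5 CPM), up to 4 members of smallest p per list, the label checks and the genes switched on. Promoters were matched by symbol (10839 of 15298 genes). Some genes that this rule names are not reported here.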

Additional observations from a re-analysis of the deposited data

How the results depend on the processing

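Of 477 named gene results 475 passed the test. Of these, 449 kept sign and call under every alternative that tested them, 26 lost the call under at least 1, and none passed in the opposite direction. Some alternatives did not test every named gene. Array weights, which down-weight crushed library 1, raised the calls to 10328 (5183 higher and 5145 lower). Falls over 2-fold numbered 196 with DESeq2, 188 with edgeR and 168 with a pseudocount of 0.1, against 104. Leaving out each library in turn gave 4566 to 7581 calls (2269 to 3623 higher, 2223 to 3958 lower), with 424 to 560 rises and 87 to 144 falls over 2-fold. Removing the trend on GC content and length gave 7656 calls, of which 42.7% were rises against 49.7%. The replicate block gave 6386 calls (3201 higher, 3185 lower; 527 and 104 over 2-fold). Deviations of libraries with the same replicate number correlated at 0.133, -0.227 and 0.218, and the labels do not say that the numbers pair pools, so the block is given only here. With 4 residual degrees of freedom, small changes that did not pass are not shown to be absent. Values near 1 read, 0.0140 to 0.0199 CPM, limit the genes switched on.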

Other observations

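By gene class in the GENCODE annotation, protein-coding genes split evenly (2970 of 14135 tested rose and 2986 fell). Of 562 long non-coding genes 114 fell (20.3%, against 20.8% of all tested genes) and 64 rose (11.4%, against 20.5%), with a median log2 change of -0.08. Of 270 tested pseudogenes 52 rose (19.3%) and 12 fell (4.44%), with a median of 0.14. Reads of a processed pseudogene and of its parent gene may be shared, and many such parents code for ribosomal proteins and other abundant proteins, so these pseudogene values are uncertain. Of 298 tested entries with no GENCODE match 50 rose and 62 fell. No class was tested against another.

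The families of solute carriers and ABC transporters, whose counts are not given above, also held single large changes. Of 46 tested amino acid carriers 14 rose and 12 fell (median 0.06). Slc6a19, a carrier of neutral amino acids known from gut and kidney, measured 21, 19.3 and 17.6 intact and 63.6, 54.8 and 58.6 crushed CPM (1.59 ± 0.083). Of 41 mitochondrial carriers 15 fell and 8 rose (median -0.13), and the rises were 5 without crushed library 3, intact library 1 or intact library 2. Slc25a24, a calcium-regulated carrier of adenine nucleotides, measured 11.7, 10.1 and 10.3 intact and 24.4, 22.6 and 23.6 crushed CPM (1.11 ± 0.079). Of 39 ABC transporters 13 fell and 7 rose, with Abcd2, of the peroxisomal fatty acid carriers, at 29.8, 31.1 and 28.1 intact and 14.2, 11.5 and 13.5 crushed CPM (-1.16 ± 0.089) and Abca12, a lipid carrier of the skin, at 0.752, 0.531 and 0.629 intact and 2.39, 2.72 and 2.89 crushed CPM (1.48 ± 0.12).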
